A study of Mus musculus with 20 samples.

Results

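The genes described here build, load and switch on major histocompatibility complex (MHC) class II molecules. They are H2-Aa, H2-Ab1, H2-Eb1, H2-DMa, H2-DMb1, Ciita and Ctss, which make 7 of the 19504 genes measured, and each is the array row that the platform annotation gives to that symbol. They were followed on 20 arrays of mouse melanoma in 6 groups. The B;p38α tumors grew in Tyr::CreERT2;BrafCA/CA;p38αlox/lox mice and the B tumors in Tyr::CreERT2;BrafCA/CA mice, so both carried BrafV600E and only the B;p38α tumors, here also called p38α-deleted, carried the p38α deletion. In both, 4-hydroxytamoxifen at 5 mg/ml was painted on the skin on postnatal day 2.5 and again on day 3.5, when UVB at 6.24 kJ/m2 was also given, and tumors were taken at the ethical endpoint. The Tyr promoter drives the recombinase in melanocytes, so the alleles of immune and other stromal cells were not the ones targeted. There were 3 B;p38α and 5 B complete tumors, 3 B;p38α and 3 B samples of CD45+ (immune) cells, and 3 B;p38α and 3 B samples of CD45- (tumor and stroma) cells. The CD45+ cells were taken from dissociated tumors by magnetic positive selection, and the CD45- cells were what it left behind.

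MHC class II molecules are pairs of an alpha and a beta chain that show peptides from engulfed protein to CD4+ T cells. They are made mainly by dendritic cells, macrophages and B cells, and interferon gamma can induce them in other cells, melanoma cells among them. Their genes share a promoter module of X and Y boxes, on which the RFX, CREB and NF-Y factors assemble and to which the coactivator CIITA is recruited.

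X and Y boxes stood together in 3 of the members' promoters. RefSeq promoters (GRCm38.p6, 250 bases before to 50 after the annotated start) were at hand for 5 of the 7 members. The 4 below are shown because they hold a match to a motif searched on both strands, in capitals: the Y box TGATTGG, the X1 box AACNGATG, the X2 box TGACGTCA or the interferon-stimulated response element (ISRE) GAAANNGAA. The X2 letters are their own reverse complement and so match both strands at 1 place. The letters of the motifs were chosen after these promoters had been read.
H2-Aa: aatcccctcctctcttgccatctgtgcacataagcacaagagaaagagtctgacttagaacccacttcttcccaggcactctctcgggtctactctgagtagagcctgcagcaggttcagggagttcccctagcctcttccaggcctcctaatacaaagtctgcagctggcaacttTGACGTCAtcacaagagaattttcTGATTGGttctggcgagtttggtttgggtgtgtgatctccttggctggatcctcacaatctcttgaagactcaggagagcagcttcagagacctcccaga
H2-Eb1: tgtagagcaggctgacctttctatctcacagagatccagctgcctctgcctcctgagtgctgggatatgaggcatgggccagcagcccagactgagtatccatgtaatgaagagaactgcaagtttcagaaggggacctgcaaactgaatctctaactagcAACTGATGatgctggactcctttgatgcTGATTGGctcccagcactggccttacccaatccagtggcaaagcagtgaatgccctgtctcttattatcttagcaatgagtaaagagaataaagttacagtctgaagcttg
H2-DMb1: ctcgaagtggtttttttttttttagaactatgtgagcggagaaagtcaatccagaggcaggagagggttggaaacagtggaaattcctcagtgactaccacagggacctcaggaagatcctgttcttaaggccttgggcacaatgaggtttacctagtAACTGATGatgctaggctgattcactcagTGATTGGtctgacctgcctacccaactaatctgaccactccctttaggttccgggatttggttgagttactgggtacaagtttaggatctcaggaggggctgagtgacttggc
Ctss: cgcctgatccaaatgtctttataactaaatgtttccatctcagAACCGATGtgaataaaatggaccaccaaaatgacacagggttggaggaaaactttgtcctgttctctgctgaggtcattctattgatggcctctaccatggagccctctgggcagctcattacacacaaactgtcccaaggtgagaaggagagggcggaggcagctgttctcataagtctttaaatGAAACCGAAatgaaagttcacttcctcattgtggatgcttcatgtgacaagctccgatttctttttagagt

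The H2-Aa promoter (chr17:34287774-34288073, minus strand) held the X2 box with its first base 74 bases upstream of the start and the Y box at 50 bases upstream, 16 bases apart. The H2-Eb1 promoter (chr17:34305617-34305916, plus strand) held the X1 box at 89 and the Y box at 61 bases upstream, 20 bases apart. The H2-DMb1 promoter (chr17:34152941-34153240, plus strand) had the same order, with the X1 box at 92 and the Y box at 63 bases upstream, 21 bases apart. The promoter of Ctss (chr3:95526536-95526835, plus strand), which lies on another chromosome, held an X1 box at 207 and an ISRE at 21 bases upstream, and no Y box in these letters. Neither of the 2 annotated windows of H2-DMa held a match in these letters. Of 32851 promoters of this length, 7.82% held the Y box, 2.32% the X1 box, 1.79% the X2 box and 8.56% the ISRE, while 61 (0.186%) held both the Y and the X1 box. The Y and X1 pair is the one in H2-Eb1 and H2-DMb1. The share of promoters with both the Y and the X2 box, as in H2-Aa, was not computed. The joint count of X and Y boxes above therefore has no share of all promoters beside it and is not read as a result. A match describes the letters only.

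All values are log2 expression from robust multi-array averaging (RMA), so 1 unit is a doubling, and the medians of the arrays lay between 6.78 and 6.98. Differences were tested with limma across all 19504 genes and called at a Benjamini-Hochberg adjusted p under 0.05. The titles number the samples as biological replicates. They do not say whether each came from its own animal, and the p-values reflect only how far these samples spread. Mapk14, which encodes p38α, averaged 9.79 ± 0.20 in B;p38α and 10.06 ± 0.11 in B complete tumors, 10.20 ± 0.21 in B;p38α and 10.39 ± 0.08 in B CD45+ cells, and 9.64 ± 0.14 in B;p38α and 9.79 ± 0.23 in B CD45- cells (SD, n = 3, except 5 B complete tumors), with overlapping ranges each time. No source used here places its probes relative to the deleted part, so this does not check the genotype labels. The arrays of B CD45- replicate 1 and B CD45+ replicate 2 had the narrowest interquartile ranges, 2.95 and 3.40, against 3.61 to 3.89 on the others. The mean of 3 Y-linked genes differed widely between arrays of 1 group (3.30 to 8.81 in B;p38α CD45- cells and 2.79 to 8.60 in B CD45- cells), and it was 2.75 to 3.23 in B;p38α CD45+ cells, against 4.30 to 8.67 in B CD45+ cells.

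All 7 class II genes were highest in CD45+ cells, and the CD45- cells of p38α-deleted tumors had the lowest mean of each. For every member the order of group means began with B CD45+ cells and then B;p38α CD45+ cells, and the ranges of these 2 groups overlapped for every member except H2-Ab1. The next group down did not overlap B;p38α CD45+ cells for any member except H2-Eb1. The middle of the order (complete tumors of both genotypes and B CD45- cells) was not resolved, since each pair of neighbours there overlapped for every member.

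**Figure D1:**
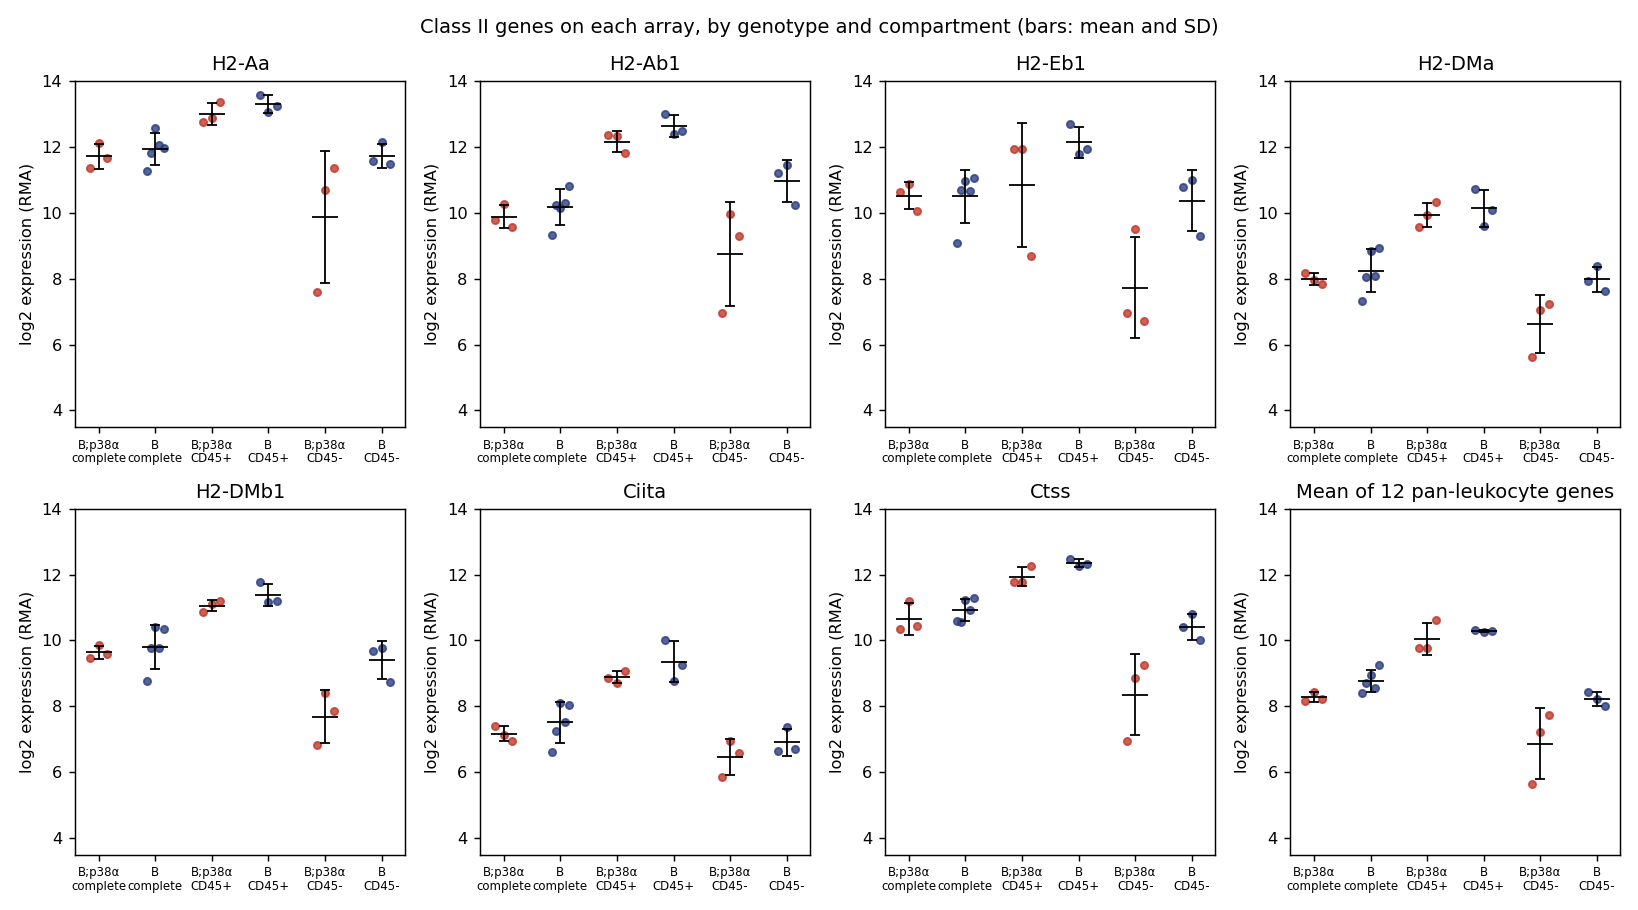
Each panel plots log2 RMA expression (vertical axis) on each array in the 6 groups (horizontal axis), for the 7 class II genes and, last, the mean of 12 pan-leukocyte genes. Points are arrays (red with and blue without the p38α deletion) and bars are the mean and SD. The CD45+ points are the highest for each gene but H2-Eb1, where B;p38α CD45+ replicate 3 lies at 8.68, and replicate 1 of the CD45- cells of that genotype is the lowest array for all but H2-Eb1.

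The first comparison set CD45+ against CD45- cells over both genotypes, and all 7 members rose in CD45+ cells. Of all genes, 7.79% were called higher in this comparison. The differences of the members lay between 2.34 and 2.76 log2 units with a median of 2.54, against a median of -0.08 over all genes. In 6 of the 7, every CD45+ array was above every CD45- array, which held for 5.78% of all genes.

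H2-Aa encodes the alpha chain of the I-A molecule. It measured 12.75, 12.89 and 13.38 in B;p38α and 13.59, 13.05 and 13.25 in B CD45+ cells, against 7.60, 10.70 and 11.35 in B;p38α and 11.56, 12.15 and 11.47 in B CD45- cells. The CD45+ arrays lay within 1 unit of each other while B;p38α CD45- replicate 1 lay far below the other CD45- arrays, and the difference was 2.34 ± 0.52 (SE, limma adjusted p = 0.0121), which is 5.08-fold. H2-Ab1, the beta chain that pairs with it, measured 12.35, 12.33 and 11.80 in B;p38α and 13.00, 12.39 and 12.48 in B CD45+ cells, against 6.95, 9.97 and 9.31 in B;p38α and 11.19, 11.45 and 10.24 in B CD45- cells. No CD45- array reached a CD45+ array, and the difference was 2.54 ± 0.44 (SE, limma adjusted p = 0.00286). H2-Eb1, the beta chain of the I-E molecule, measured 11.93, 11.93 and 8.68 in B;p38α and 12.69, 11.78 and 11.94 in B CD45+ cells, against 6.97, 9.49 and 6.73 in B;p38α and 10.78, 11.00 and 9.31 in B CD45- cells. It was the member whose groups overlapped, because B;p38α CD45+ replicate 3 lay below 4 CD45- arrays, and its difference was 2.45 ± 0.65 (SE, limma adjusted p = 0.0312). This call was lost when any of 8 of the 12 sorted arrays was left out, with adjusted p-values up to 0.0752.

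H2-DMa and H2-DMb1 encode the chains of H2-DM, which exchanges the placeholder peptide in the class II groove for antigen peptides. H2-DMa measured 9.57, 9.93 and 10.31 in B;p38α and 10.72, 9.60 and 10.09 in B CD45+ cells, against 5.62, 7.04 and 7.23 in B;p38α and 7.94, 8.37 and 7.62 in B CD45- cells. The highest CD45- array was still more than 1 unit below the lowest CD45+ array, and the difference was 2.73 ± 0.30 (SE, limma adjusted p = 1.36e-04). H2-DMb1 measured 10.87, 11.12 and 11.18 in B;p38α and 11.77, 11.17 and 11.19 in B CD45+ cells, against 6.83, 8.40 and 7.85 in B;p38α and 9.69, 9.79 and 8.73 in B CD45- cells. Its CD45+ arrays were among the tightest of the members, and the difference was 2.67 ± 0.27 (SE, limma adjusted p = 9.05e-05). H2-DMb1 has a near-identical neighbouring copy, H2-DMb2, so which of the copies a probe reads is uncertain.

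Ciita encodes the coactivator that switches on the other class II genes. It measured 8.88, 8.70 and 9.07 in B;p38α and 10.03, 8.79 and 9.26 in B CD45+ cells, against 5.85, 6.93 and 6.59 in B;p38α and 6.65, 7.38 and 6.70 in B CD45- cells. The groups were more than 1 unit apart, and the difference was 2.44 ± 0.25 (SE, limma adjusted p = 9.00e-05). Ctss encodes cathepsin S, a protease that trims the chaperone bound to new class II molecules in endosomes. It measured 11.77, 11.77 and 12.28 in B;p38α and 12.47, 12.25 and 12.32 in B CD45+ cells, against 6.95, 8.86 and 9.25 in B;p38α and 10.40, 10.80 and 10.02 in B CD45- cells. Every B;p38α CD45- array lay below every B CD45- array, and the sorted difference of 2.76 ± 0.34 (SE, limma adjusted p = 2.71e-04), or 6.78-fold, had the largest size among the members.

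The rest of the class II pathway rose in part. Of the other class II chains, 3 of the 4 measured rose: H2-DMb2 by 2.75, H2-Oa by 2.36 and H2-Ob by 2.19 log2 units, the last 2 forming H2-DO, which restrains H2-DM, while H2-Eb2 differed by 0.55 (limma adjusted p = 0.0938). Of 11 class II transcription factors 4 rose, namely Spi1 (3.01), Irf4 (1.87), Irf8 (1.76) and Irf1 (0.79), which are leukocyte or interferon-induced factors. The other 7 were not called, and they include the RFX, NF-Y and CREB subunits that bind the X and Y boxes. Of 10 endosomal proteases and cofactors 8 rose, led by Marchf1 (3.12), a ubiquitin ligase that removes class II from the cell surface, then Ifi30 (1.93), Ctsc (1.89) and Ctsh (1.52). Of 10 genes of interferon gamma and its response 5 rose, with Ifng itself at 2.21, Cxcl10 at 1.23, Ifngr1 at 0.95 and Jak2 at 0.70. Of 6 costimulation genes 5 rose, led by Cd86 (3.21), Cd80 (1.78), Cd274 (1.66) and Icosl (1.43), and of 8 class I presentation genes 5 rose, led by Psmb9 (1.68), Psmb8 (1.66), H2-K1 (1.25) and Tap1 (1.04).

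The markers of the cells that the selection targets moved with them. All 12 pan-leukocyte genes rose (median 2.73), as did all 11 macrophage genes (median 2.77), 8 of 12 dendritic cell genes (median 1.85), 5 of 9 B cell genes (median 1.12), 6 of 8 T cell genes (median 1.40) and all 6 neutrophil genes (median 2.32). Of 6 fibroblast genes 1 fell and none rose (median -0.55). Their mean was still 11.52 in B;p38α and 11.51 in B CD45+ cells, against 12.06 in B;p38α and 12.22 in B CD45- cells. The CD45+ arrays were thus not free of fibroblast RNA. The CD45- arrays were not free of leukocyte RNA: the mean of the 12 pan-leukocyte genes was 5.65 to 7.72 in B;p38α and 7.999 to 8.45 in B CD45- cells, against 8.17 to 8.44 in B;p38α and 8.40 to 9.25 in B complete tumors and 9.76 to 10.62 in CD45+ cells of either genotype. The CD45+ arrays also carried endothelial RNA, since 4 of 6 endothelial genes rose in them (median 1.26). Melanocyte genes were split, with 1 of 9 called higher, 1 lower and a median of 0.04. In these bulk samples, fewer cells of a type and less RNA per cell cannot be told apart.

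Taken within each genotype, the difference between CD45+ and CD45- cells was larger in p38α-deleted than in B tumors for 6 of the 7 members, but no such gap passed the test. In p38α-deleted tumors 6 of 7 members rose (4.34% of all genes were called higher), the exception being H2-Eb1 at 3.12 ± 0.92 (SE, limma adjusted p = 0.0908). In B tumors 4 of 7 rose (3.9% of all genes), namely H2-DMa, H2-DMb1, Ciita and Ctss. The members not called in B tumors were H2-Aa at 1.57, H2-Ab1 at 1.66 and H2-Eb1 at 1.77, with adjusted p-values of 0.310, 0.189 and 0.379. Groups without overlap numbered 6 of 7 members in B;p38α tumors (11.2% of all genes) and 7 of 7 in B tumors (11.4%).

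H2-Ab1 had the widest pair of values, 3.41 ± 0.62 in B;p38α and 1.66 ± 0.62 in B tumors. Ctss had 3.58 ± 0.48 in B;p38α and 1.94 ± 0.48 in B tumors, and Ciita had nearly the same value in both, 2.42 ± 0.35 in B;p38α and 2.45 ± 0.35 in B tumors (SE). The genotype difference in CD45+ cells minus that in CD45- cells was 1.64 for Ctss (95% interval 0.16 to 3.12), 1.39 for H2-DMb1 (0.19 to 2.60) and -0.03 for Ciita (-1.12 to 1.07). The other 4 members lay between 1.15 and 1.75. None of the 7, and none of all 19504 genes, was called (limma adjusted p = 1.00 for each member), and 202 genes had a positive and 178 a negative difference at an unadjusted p under 0.05. Without B;p38α CD45- replicate 1, the values for H2-Aa and H2-Ab1 shrank to 0.41 and 0.85, and in B tumors H2-Aa (adjusted p = 0.00849) and H2-Ab1 (adjusted p = 0.0190) then passed the limma test at the same size, through the smaller shared spread. Conversely, the B count fell to 1 without the 2 arrays of narrowest range, to 1 without B CD45+ replicate 1 or 3, and to 2 without B CD45- replicate 3. The Ctss call in B tumors was lost without any of 9 of the 12 sorted arrays, and the H2-Aa call in B;p38α tumors without B CD45+ replicate 3 or any of the B;p38α CD45+ arrays, at limma adjusted p-values up to 0.133 in both cases. H2-Eb1 in p38α-deleted tumors was called without B;p38α CD45+ replicate 3 (adjusted p = 0.0141) or CD45- replicate 2 (adjusted p = 0.0347).

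**Figure D2:**
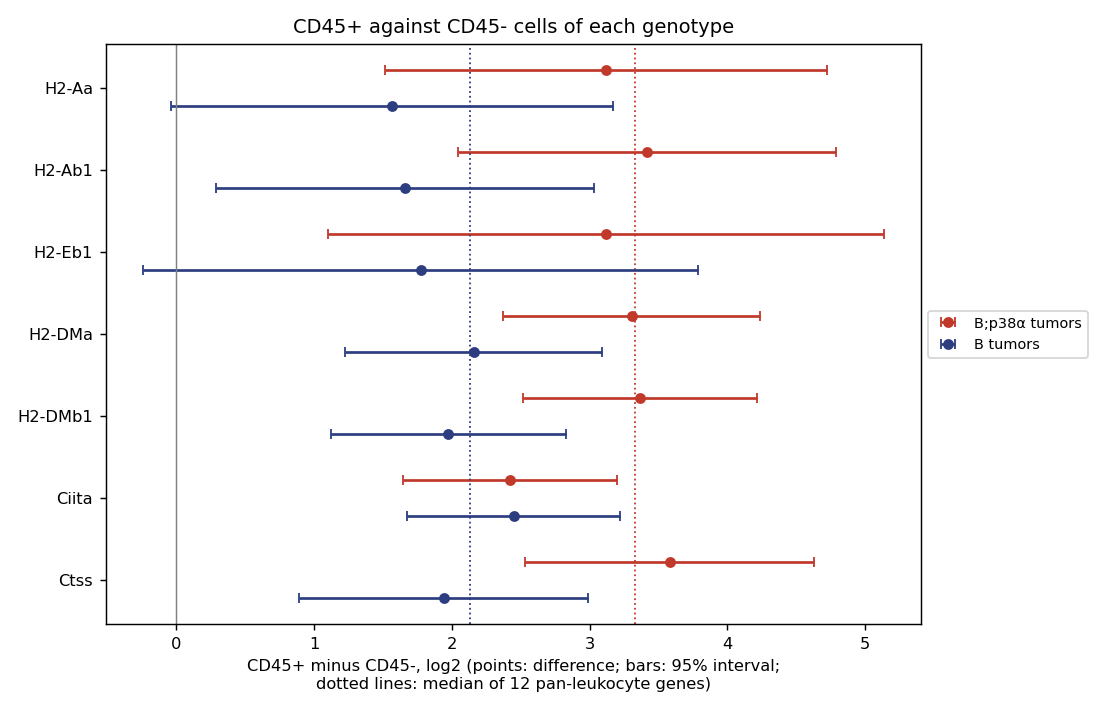
Points are the log2 difference of CD45+ minus CD45- cells (horizontal axis) for each class II gene (vertical axis) in B;p38α tumors (red) and B tumors (blue), with 95% intervals, and dotted lines mark the median of the 12 pan-leukocyte genes in each, 3.33 in B;p38α and 2.13 in B. The 2 intervals of every gene overlap, and for Ciita the points nearly coincide.

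In group means, complete tumors stood between the sorted fractions of their genotype for every member except H2-Ab1 in B tumors, where they lay below both. H2-Aa measured 11.35, 12.11 and 11.67 in B;p38α and 11.26, 11.82, 12.59, 12.06 and 11.98 in B complete tumors. H2-Ab1 measured 9.79, 10.26 and 9.58 in B;p38α and 9.31, 10.24, 10.14, 10.30 and 10.82 in B complete tumors. H2-Eb1 measured 10.65, 10.87 and 10.06 in B;p38α and 9.07, 10.70, 10.97, 10.66 and 11.06 in B complete tumors. For H2-Ab1 every CD45+ array was above every complete tumor, whereas the CD45- arrays of B tumors reached above them. H2-DMa measured 8.18, 7.95 and 7.83 in B;p38α and 7.32, 8.06, 8.84, 8.09 and 8.92 in B complete tumors, and H2-DMb1 measured 9.48, 9.86 and 9.60 in B;p38α and 8.76, 9.76, 10.40, 9.76 and 10.36 in B complete tumors. Ciita measured 7.40, 7.15 and 6.96 in B;p38α and 6.62, 7.25, 8.12, 7.53 and 8.05 in B complete tumors, and Ctss measured 10.34, 11.21 and 10.43 in B;p38α and 10.60, 10.56, 11.22, 10.93 and 11.30 in B complete tumors. In both genotypes the complete tumors of these 4 genes lay below all CD45+ arrays.

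Against complete tumors, 6 of 7 members rose in CD45+ cells, where 12.9% of all genes were called higher. In 6 of 7, no CD45+ array overlapped a complete tumor, which held for 6% of all genes. The largest difference was that of H2-Ab1, 2.37 ± 0.37 or 5.17-fold (SE, limma adjusted p = 1.57e-04), followed by H2-DMa at 1.92, Ciita at 1.78, H2-DMb1 at 1.49, Ctss at 1.35 and H2-Aa at 1.33 (limma adjusted p from 6.71e-05 to 0.0258). H2-Eb1 differed by 0.98 ± 0.54 (SE, limma adjusted p = 0.205), and by 1.52 (adjusted p = 0.0244) when B;p38α CD45+ replicate 3 was left out. The H2-Aa call was lost without any of 4 arrays, B;p38α complete replicate 1 or 3, B CD45+ replicate 1 or B;p38α CD45+ replicate 3, at adjusted p-values up to 0.0635. All 12 pan-leukocyte genes rose here as well, with a median of 1.62, and the 6 skeletal muscle genes all fell, with a median of -4.02.

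In CD45- cells against complete tumors, 2 of 7 members fell, where 6.47% of all genes were called lower: Ctss by 1.41 and H2-DMb1 by 1.18 log2 units (limma adjusted p = 0.00467 and 0.0103). H2-Eb1 (-1.46), H2-Aa (-1.02), H2-DMa (-0.81) and Ciita (-0.66) did not pass the test (limma adjusted p = 0.0718 to 0.116). Each of these 4 passed when a certain array was left out: H2-Aa without replicate 3, H2-Eb1 without replicate 2 and H2-DMa without replicate 3 of the B;p38α CD45- cells, H2-Eb1 also without B;p38α CD45+ replicate 3, and H2-DMa and Ciita without B complete replicate 1, at adjusted p-values from 0.0286 to 0.04999. H2-Ab1 stood apart from its partner chain, with a difference of -0.17 (95% interval -0.95 to 0.61) whose sign turned, to 0.28, without B;p38α CD45- replicate 1. Of the pan-leukocyte genes 8 of 12 fell, and of the macrophage genes 10 of 11, and the 6 skeletal muscle genes all fell here too, with a median of -4.09. Within arrays, H2-Ab1 minus H2-Aa was -2.09 to -1.56 in B;p38α and -2.45 to -1.15 in B complete tumors, against -1.58 to -0.41 in B;p38α and -0.77 to -0.58 in B CD45+ cells, and -2.05 to -0.65 in B;p38α and -1.23 to -0.37 in B CD45- cells. The sorted and complete ranges overlapped in p38α-deleted tumors, where replicate 3 was the lowest of both fractions, and for the CD45- cells of B tumors. This is a difference between probes, read between arrays and not as a level of either gene.

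The study's main question was what p38α loss in melanocytes does to each compartment, and in none of them was a class II gene called. In CD45- cells all 7 members were lower in p38α-deleted than in B samples, by a median of 1.84 log2 units against a median of 0.05 higher over all genes. Of 19504 genes 2 were called in this comparison (0.0103%). Without adjustment, 682 had a p under 0.05 and a positive difference and 637 a negative one. The sizes and standard errors were -2.64 ± 0.80 for H2-Eb1, -2.22 ± 0.77 for H2-Ab1, -2.05 ± 0.59 for Ctss, -1.84 ± 0.91 for H2-Aa, -1.71 ± 0.47 for H2-DMb1, -1.35 ± 0.46 for H2-DMa and -0.45 ± 0.35 for Ciita. The limma adjusted p was 0.675 for each member but Ciita, at 0.692.

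The arrays of both genotypes did not overlap for 5 of the 7 members, all lower in B;p38α CD45- cells, and 5.36% of all genes separated in this direction. These were H2-Aa, H2-Ab1, H2-DMa, H2-DMb1 and Ctss, as the values above show. One array carried much of the size: without B;p38α CD45- replicate 1, H2-Aa differed by -0.70, H2-Ab1 by -1.32, Ctss by -1.35, H2-DMa by -0.84 and Ciita by -0.14, while H2-Eb1 kept -2.25 and H2-DMb1 -1.28. The H2-Eb1 value then leaned on replicate 3, at 6.73. Replicate 2, at 9.49, lay within the B range of 9.31 to 11.00.

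Leukocyte markers, and most melanocyte markers, were lower on the same arrays. The mean of the 12 pan-leukocyte genes was 5.65, 7.24 and 7.72 in B;p38α CD45- cells, against 8.45, 8.22 and 7.999 in B CD45- cells, and the mean of the 11 macrophage genes was 5.82, 7.41 and 8.61, against 9.22, 9.18 and 8.64. In this comparison 11 of 12 pan-leukocyte genes were lower (median -1.24, with 9 without overlap) and 11 of 11 macrophage genes (median -1.69, with 5 without overlap), and none of either list was called. Of 9 melanocyte genes 8 were lower as well (median -0.525), 4 of them without overlap, and none was called. Of all genes, 5.36% separated in this direction. The part that these marker differences played in the class II difference was not tested. Set against the pan-leukocyte mean of its own array, the mean of the 7 members was 0.61 to 1.54 higher in B;p38α and 1.16 to 1.91 higher in B CD45- cells, so the groups overlapped. The same difference for Ctss was 1.31 to 1.63 in B;p38α and 1.95 to 2.58 in B CD45- cells, which did not overlap. Ciita went the other way, at -1.13 to 0.21 in B;p38α and -1.80 to -0.84 in B CD45- cells, and H2-DMa averaged -0.24 ± 0.24 in B;p38α and -0.24 ± 0.35 in B CD45- cells. For these and the other 4 members the groups overlapped, so only Ctss separated. The share of all genes that separate on this measure was not computed, so the Ctss gap is not read as a result. Less the macrophage mean, the mean of the 7 members averaged 0.65 ± 0.84 in B;p38α and 0.67 ± 0.25 in B CD45- cells (SD, n = 3 each).

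Beyond the members, the pathway was mixed. All 4 other class II chains were lower, from -0.32 for H2-Eb2 to -1.84 for H2-DMb2, without a call. Of 11 class II transcription factors 7 were higher and 4 lower in p38α-deleted samples (median 0.12), none called. They include Spi1, a myeloid factor, at -2.16 and Rfxank, an RFX subunit, at 0.53, and each separated the genotypes without overlap. Of all genes, 5.36% separated in the lower and 10.6% in the higher direction, so 1 of 11 factors in each direction is not read as a result. Of the other lists, Marchf1 differed by -1.76, Cd86 by -1.57 and Icosl by -1.31, again without a call. The interferon gamma genes were centred near 0 (median -0.05), with Cxcl10 at 0.62 and Ifngr1 at -0.41, and the class I genes had a median of -0.20.

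**Figure D3:**
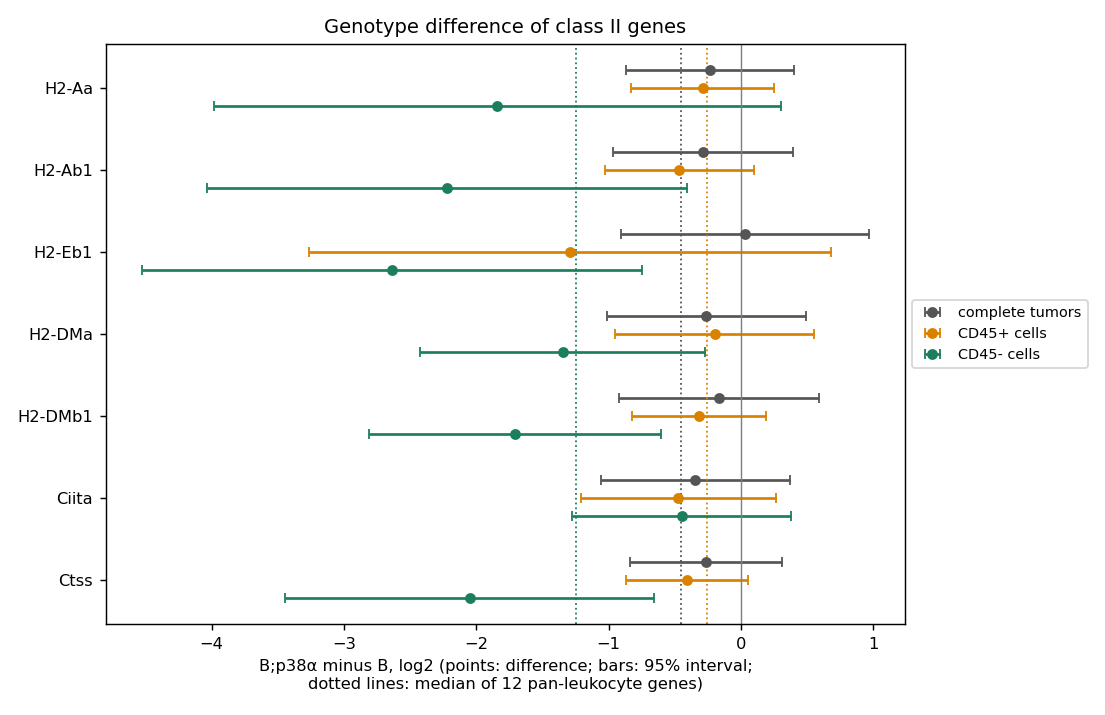
Points are the log2 difference of B;p38α minus B samples (horizontal axis) for each class II gene (vertical axis) in complete tumors (grey), CD45+ cells (orange) and CD45- cells (green), with 95% intervals, and dotted lines mark the median of the 12 pan-leukocyte genes in each. The CD45- intervals of 5 genes lie below 0 before adjustment, those of H2-Aa and Ciita reach it, and every interval of the other compartments holds 0.

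In CD45+ cells the members were lower in p38α-deleted than in B samples by smaller amounts, from -0.20 for H2-DMa to -0.47 for Ciita and -1.29 ± 0.84 (SE) for H2-Eb1. None was called (0% of all genes by limma, while 1110 were higher and 991 lower with p under 0.05 before adjustment), and the limma adjusted p-values lay between 0.478 and 0.810. Only H2-Ab1 separated the genotypes, with 12.35, 12.33 and 11.80 in B;p38α, against 13.00, 12.39 and 12.48 in B CD45+ cells, and 7.35% of all genes separated in this direction. The H2-Eb1 value came from replicate 3 of the p38α-deleted samples, and without it the difference was -0.21. With arrays weighted by quality, Ctss was called lower at -0.51 (limma adjusted p = 0.0198), together with 5303 genes in all. With the Y-linked mean as a covariate, the signs of 5 members turned, to between 0.02 for H2-Ab1 and 0.49 for H2-DMa, so no direction is read here. The 12 pan-leukocyte genes had a median of -0.26, with 9 of 12 lower, and all 6 endothelial genes were lower, with a median of -0.67 and no call.

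In complete tumors no member separated or was called (0% of all genes by limma, and 2.54% without overlap in the lower direction), and before adjustment 555 genes were higher and 734 lower with p under 0.05. The differences were -0.34 for Ciita, -0.28 for H2-Ab1, -0.26 for Ctss and H2-DMa, -0.23 for H2-Aa, -0.16 for H2-DMb1 and 0.03 for H2-Eb1, with limma adjusted p-values from 0.887 to 0.995. The 95% intervals bound the genotype difference in whole tumors to at most 1.06 lower (Ciita) and 0.97 higher (H2-Eb1) log2 units. Pan-leukocyte genes were lower in 12 of 12 (median -0.45) and macrophage genes in 10 of 11 (median -0.65), also uncalled, and the 6 skeletal muscle genes had a median of -2.09 without a call. The muscle mean was 5.68, 8.67 and 10.78 in B;p38α complete tumors, against 10.19 to 11.04 in B, so replicate 3 lay within the B range. Among the pathway lists, all 10 endosomal proteases and cofactors were lower, led by Ifi30 at -0.59, and Cxcl9, an interferon gamma induced chemokine, was 1.17 higher, none of them called.

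The genotype difference in CD45+ cells minus that in complete tumors lay between -0.18 and 0.06 for 6 members and was -1.32 (95% interval -3.60 to 0.96) for H2-Eb1. No member and none of all genes was called (limma adjusted p from 0.796 to 0.991 for the members, and 792 genes positive and 616 negative at an unadjusted p under 0.05).

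Across the 20 arrays the class II level and the leukocyte level of a sample ran together. The mean of the 7 members was 10.96 to 11.24 in B;p38α and 11.29 to 12.04 in B CD45+ cells, 9.45 to 9.91 in B;p38α and 8.99 to 10.36 in B complete tumors, and 6.68 to 8.77 in B;p38α and 9.15 to 10.13 in B CD45- cells. Less the pan-leukocyte mean, it averaged 1.06 ± 0.63 in B;p38α and 1.32 ± 0.35 in B CD45+ cells, 1.37 ± 0.13 in B;p38α and 1.10 ± 0.32 in B complete tumors, and 1.06 ± 0.47 in B;p38α and 1.46 ± 0.40 in B CD45- cells (SD, n = 3, except 5 B complete tumors). These values overlapped among all 6 groups.

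**Figure D4:**
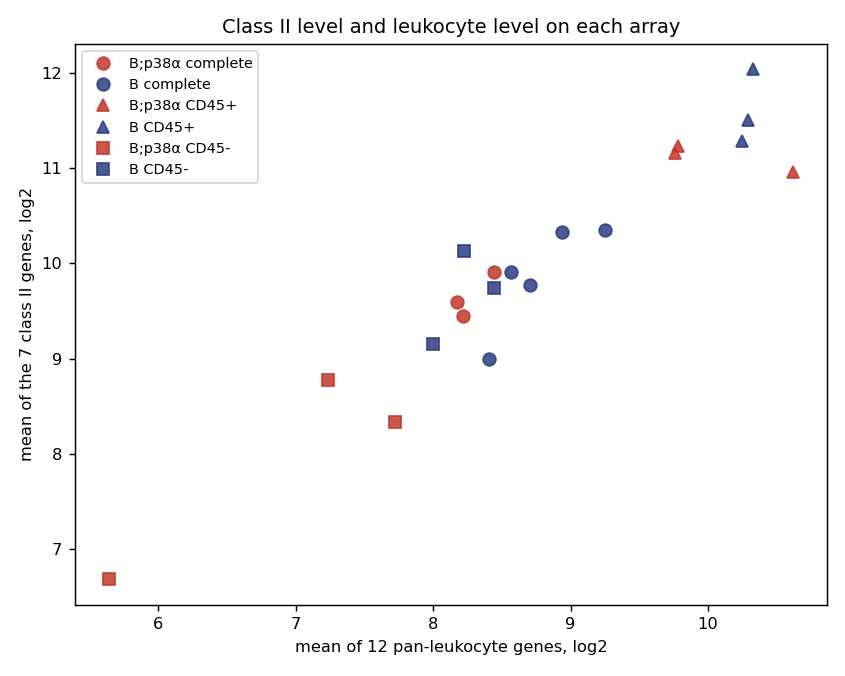
Each point is 1 array, with the mean of 12 pan-leukocyte genes on the horizontal axis and the mean of the 7 class II genes on the vertical axis, both in log2 units (red with and blue without the p38α deletion, and circles for complete tumors, triangles for CD45+ and squares for CD45- cells). The arrays run from B;p38α CD45- replicate 1 (5.65 and 6.68) up to the CD45+ samples, and B;p38α CD45+ replicate 3 has the highest leukocyte mean, 10.62, with the lowest class II mean among CD45+ samples, 10.96.

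The members also followed one another. Over all 20 arrays the Pearson correlation of member pairs was 0.70 to 0.97 (median 0.89, 21 pairs), and with each group centred on its mean it was 0.20 to 0.94 (median 0.75). The genes outside the members most like the mean of H2-Aa, H2-Ab1 and H2-Eb1 over the 20 arrays were Plbd1 (0.95), Dock2 (0.95), Arhgap15 (0.95), Pik3ap1 (0.95), Il10ra (0.94), H2-DMb2 (0.94), Traf3ip3 (0.94) and Lcp1 (0.94). With groups centred they were H2-Oa (0.84), Il10ra (0.83), Msln (0.81), Dock2 (0.81), Cd52 (0.81), I830077J02Rik (0.80), Pik3ap1 (0.79) and Isl2 (0.79). These are descriptions over arrays that share the sort and the tissue. The centred values weigh B;p38α CD45- cells most, where the mean of the 7 members had an SD of 1.10, against 0.14 to 0.55 in the other groups.

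H2-Eb1 left the other members on 2 arrays. In replicate 3 of the p38α-deleted samples, H2-Eb1 minus H2-Aa was -4.70 in CD45+ and -4.63 in CD45- cells, against -2.19 to -0.63 on the other 18 arrays. The CD45+ array had 8.68 for H2-Eb1, against 11.93 on both other arrays of its group, while its H2-Aa, at 13.38, was the highest of them. Set against the mean of replicates 1 and 2, the H2-Eb1 difference of -3.25 was the 8th lowest of 19504 genes on that array.

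The low value was not shared by all neighbours in the class II region of chromosome 17. On the same CD45+ array H2-DMb2 differed by -2.14 (the 36th lowest) and H2-Oa by -1.52 (the 132nd lowest), H2-Ab1 by -0.54 and H2-Eb2 by -0.64. H2-DMa differed by 0.56, H2-DMb1 by 0.19, H2-Ob by -0.10 and H2-Aa by 0.56, and the class I genes that lie among them, Psmb9, Tap1, Psmb8 and Tap2, differed by 0.17 to 1.05. In the RefSeq order, H2-DMb2 lies between H2-DMa and H2-DMb1, and H2-Aa between H2-Ab1 and H2-Eb1, so the low genes alternate with genes that were not low. In CD45- cells, replicate 3 had lower H2-Eb1 (-1.50) and H2-DMb2 (-0.25) than the mean of its fellows, and higher H2-Aa (2.20), H2-DMa (0.90) and H2-Oa (1.12). Replicate 1 was the lower fellow for all of these and pulled that mean down. Replicates 2 and 3 measured 9.49 and 6.73 for H2-Eb1 and 7.16 and 6.18 for H2-DMb2. They measured 10.70 and 11.35 for H2-Aa, 7.04 and 7.23 for H2-DMa, and 5.60 and 5.89 for H2-Oa. The labels do not say whether both replicate 3 samples came from 1 tumor, and single-sample values carry no test.

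**Figure D5:**
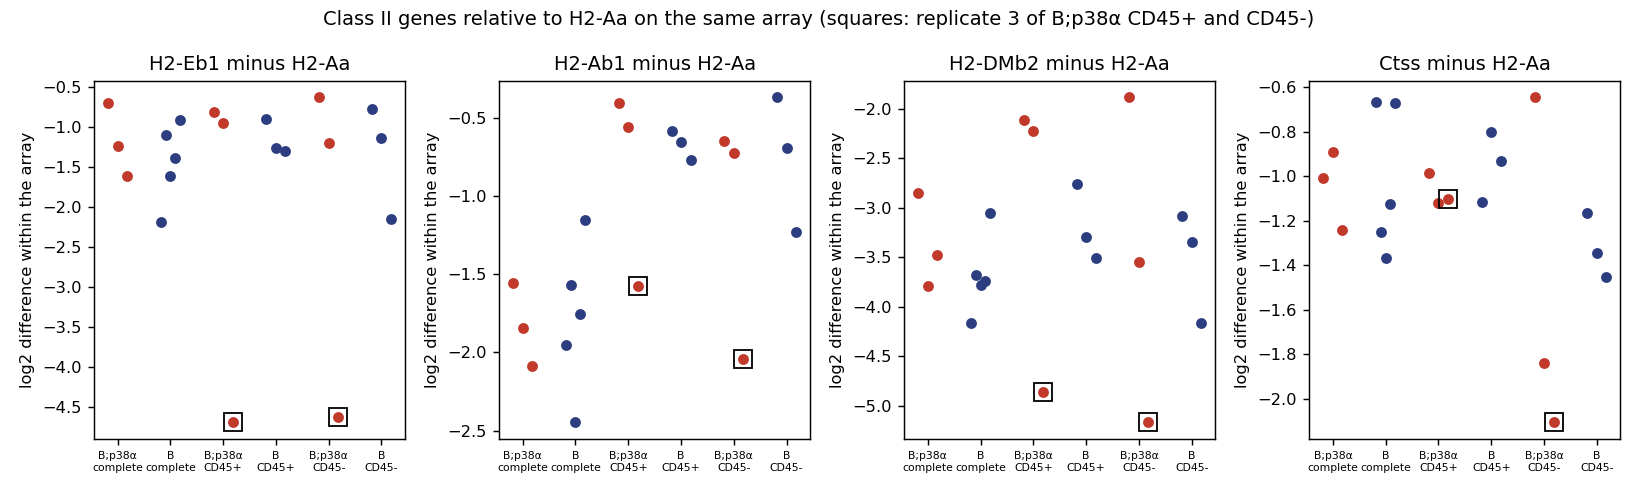
Each panel plots the log2 difference of a gene from H2-Aa on the same array (vertical axis) in the 6 groups (horizontal axis), with 1 point per array (red with and blue without the p38α deletion) and squares round replicate 3 of the p38α-deleted CD45+ and CD45- samples. H2-Eb1 is far below the other arrays on both squared arrays, at -4.70 and -4.63, and H2-DMb2 is lowest on the same arrays.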

How the data were processed

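All 20 arrays of mouse melanoma were analysed. The deposited values were log2 expression made by the authors with RMA, per the submitters' processing notes. Whether all arrays were normalized together, and the genome build of the platform, are not stated in those notes or the labels. The table had 21244 rows without missing values. The platform annotation gave 1 symbol to 19570 rows and none to 1674, and no row had several. All 19570 were matched to RefSeq through their Entrez number without a change of symbol. Where rows shared a symbol, the row with the higher mean was kept (66 left out), which gave 19504 genes, and each member had 1 row. RefSeq promoters were searched for short motifs.

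Groups came from the labels. Differences were fitted with limma 3.58.1 (lmFit and eBayes) in R 4.3.3 and adjusted by Benjamini-Hochberg over all genes, at 0.05. Genotypes were compared within a compartment from its own arrays. CD45+ and CD45- cells, and the genotype difference between them, were compared from the 12 sorted arrays, and comparisons with complete tumors used all 20. Alternatives were all 6 groups in one fit, the replicate number as a block, genes below the 30th percentile left out, quantile normalization repeated, array weights, a Y-linked covariate, each array left out in turn and, chosen after seeing the data, the 2 arrays of narrowest range left out. Whether samples are paired is not known from the replicate numbers, and the main fits treated all arrays as unpaired. The number of arrays limits the precision. The procedure was tested on simulated data, with 100 genes changed by 1 and 100 by 2 log2 units in each comparison. Between genotypes, 49% and 88% of these were called in complete tumors, 26% and 80% in CD45+ cells, and 1% and 55% in CD45- cells. For the genotype difference in CD45+ minus that in CD45- cells it was 2% and 51%. A gene not called in these comparisons is therefore not shown to be unchanged. Python 3.11.15 with pandas 2.3.3 and matplotlib 3.10.9 made the descriptions and figures.

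The members and the gene lists were chosen with earlier results of these data known. All members were named in every comparison, and from a pathway list up to 4 genes of largest absolute difference, called ones first. The genes most like the members were the 8 of highest Pearson correlation with the mean of standardised H2-Aa, H2-Ab1 and H2-Eb1.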

Additional observations from a re-analysis of the deposited data

Results flagged for a closer look

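H2-Eb1 in B complete tumors had 1 sample far from the others. Replicate 1 measured 9.07, against 10.66 to 11.06 in the other 4, so that the gap below them took up most of the group's range. The same tumor was also the lowest of the 5 for H2-Aa, H2-Ab1, H2-DMa, H2-DMb1 and Ciita, with smaller gaps that did not meet the criterion. Its mean of the 9 melanocyte genes was 7.76, against 5.77 to 6.42 in the other 4, and its pan-leukocyte mean was 8.40, against 8.57 to 9.25. This was the only group large enough for the criterion, which was applied to each of the 7 members in it. By chance about 1 in 20 such tests meets it, so 1 flag among 7 is less unusual than that. Without this tumor, the genotype difference of H2-Eb1 in complete tumors was -0.33 log2 units (B;p38α minus B), against 0.03 with it.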

How the results depend on the processing

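Of 1281 single-gene values computed again under an alternative, 1187 kept their direction and side of the threshold, 36 lost a call, 15 gained one and 43 changed sign, with 20 of the 43 in the genotype difference of CD45+ cells minus that of complete tumors. All 84 values of the genotype difference in CD45- cells stayed negative and uncalled, but their sizes moved. With each array left out in turn, H2-Aa ranged from -2.58 to -0.70 there. The causes were not tested.

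The samples of CD45+ and CD45- cells with the same replicate number did not deviate together throughout (r of -0.465, -0.568 and 0.363 in B, and 0.305, -0.111 and 0.353 in B;p38α). These values do not settle whether the fractions came from the same tumors, so pairing stays unresolved. With the replicate number as a block, 27 genes were called between genotypes in complete tumors, 14 for the genotype difference of CD45+ cells minus that of complete tumors, 534 between CD45+ and CD45- cells of B tumors and 1484 between CD45- cells and complete tumors, against 0, 0, 908 and 2479 without it. The block turned H2-DMb1 to 0.0015 between genotypes in complete tumors, and H2-DMa to -0.11 in CD45+ cells minus complete tumors.

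With array weights, 5303 genes and 1 member were called between genotypes in CD45+ cells and 4 genes in CD45- cells, 761 for the genotype difference of CD45+ cells minus that of complete tumors, and 4275 between CD45+ and CD45- cells over both genotypes, 1906 in B;p38α and 2652 in B tumors, and 7769 between CD45+ cells and complete tumors. The weights turned H2-Eb1 to -0.0186 between genotypes in complete tumors, H2-Ab1 to 0.0074 in CD45- cells minus complete tumors and to 0.0295 in the genotype difference of CD45+ cells minus that of complete tumors, and Ciita to 0.0027 in the genotype difference of CD45+ minus that of CD45- cells. With the Y-linked covariate, 250 genes were called between genotypes in CD45+ and 1 in CD45- cells. The covariate turned H2-Aa to 0.0271, H2-Ab1 to 0.017, H2-DMa to 0.49, H2-DMb1 to 0.11 and Ciita to 0.35 between genotypes in CD45+ cells, H2-Eb1 to -0.35 in complete tumors, and Ciita to 0.30 in the genotype difference of CD45+ minus that of CD45- cells. With all 6 groups in one fit, 2 genes were called between genotypes in CD45+ and 0 in CD45- cells, and 7 in CD45+ cells without dim genes. Without the 2 arrays of narrowest range, 1 member and 329 genes were called between CD45+ and CD45- cells of B tumors, and H2-DMa was -0.21 in the genotype difference of CD45+ cells minus that of complete tumors.

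Leaving out each array in turn called 0 to 49 genes between genotypes in complete tumors, 0 to 30 in CD45+ and 0 to 4 in CD45- cells. It called 1 to 6 members and 271 to 1077 genes between CD45+ and CD45- cells of B tumors, 606 to 1197 genes in B;p38α tumors, 2 to 4 members and 1459 to 2990 genes between CD45- cells and complete tumors, 0 to 1 gene for the genotype difference of CD45+ minus that of CD45- cells and 0 to 16 for CD45+ cells minus complete tumors. Between genotypes, H2-Eb1 ranged from -0.33 to 0.26 in complete tumors and H2-DMa from -0.47 to 0.0912 in CD45+ cells. H2-Ab1 ranged from -0.48 to 0.28 in CD45- cells minus complete tumors, and Ciita from -0.33 to 0.31 in the genotype difference of CD45+ minus that of CD45- cells. In the genotype difference of CD45+ cells minus that of complete tumors the ranges were -0.25 to 0.14 for H2-Aa, -0.35 to 0.0308 for H2-Ab1, -0.21 to 0.35 for H2-DMa, -0.30 to 0.11 for H2-DMb1, -0.42 to 0.21 for Ciita and -0.32 to 0.13 for Ctss.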
